A study of Mus musculus with 4 samples.

Results

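The cytosolic ribosomal protein genes of CD8-positive T cells from mouse tumours were described in 4 single-cell libraries. Members were taken by symbol, as genes named Rps or Rpl with a number, the stalk genes Rplp0 to Rplp2 and Rpsa, leaving out symbols ending in -ps, the Rps6k kinases and Rps19bp1. This gave 85 of the 32285 genes of the matrices. Of these, 81 were core members, 49 of the large and 32 of the small subunit, and 4 (Rpl39l, Rps27l, Rpl22l1 and Rpl3l) were paralogues that are described apart from the core.

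Each cytosolic ribosome is assembled from ribosomal RNA and about equal amounts of each core protein, so the genes of the large and small subunits are usually expressed together. Their messenger RNAs begin with a pyrimidine tract, through which the kinase mTORC1 sets their translation, and T cells build more ribosomes when they are activated and divide. Some core proteins have a second gene copy whose product can take the parent's place in the ribosome, and the relative use of the copies differs between tissues.

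Both groups were CD8-positive T cells sorted as live CD45-, CD3- and CD8-positive cells from B16F10 tumours, a mouse melanoma line, grown in C57BL/6J mice of 6 to 8 weeks. The sgArid1a group (2 samples) is named for a guide RNA against Arid1a, a subunit of the SWI/SNF (BAF) chromatin remodelling complex, and the sgScr group (2 samples) for a scrambled guide. From the labels it is not known whether tumour cells or T cells carried the guide, nor whether the 2 samples of a group came from separate animals. The p-values therefore rest on the spread between the 4 samples alone, and part of that spread may be technical. Chromium 5′ gene expression libraries were counted as unique molecular identifiers (UMIs), 1 per captured RNA molecule. Levels are given as CPM, the UMI count scaled to a library total of 1000000, and not divided by gene length. Both CPM and shares are relative, so fewer core molecules per cell and more RNA of other genes cannot be told apart.

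After filtering there were 10695 and 12771 T cells with 39285383 and 81447081 UMIs in the sgArid1a samples and 7636 and 7157 T cells with 35642152 and 32201336 UMIs in the sgScr samples. The median cell held 2407 and 4025 UMIs in the sgArid1a samples and 3750 and 3597 UMIs in the sgScr samples, so sgArid1a replicate 1 was the shallowest library per cell. Any 2 libraries shared between 74 and 217 cell barcodes, at most 2.03% of the smaller library. Arid1a itself was at 74.1 and 72.6 CPM in sgArid1a cells and 85.2 and 93.6 CPM in sgScr cells (log2 fold change -0.26, edgeR quasi-likelihood adjusted p = 0.00425, and 0.0954 without sgScr replicate 2). All 4 T cell marker genes were detected in every sample at a summed level of 3761 to 3807 CPM. Markers of B, natural killer, CD4 T, macrophage, melanoma and red cells each summed to at most 12.6 CPM. The 6 dendritic cell and MHC class II markers summed to 107 and 105 CPM in sgArid1a samples and 40.6 and 52.5 CPM in sgScr samples; the part of such cells in the results was not tested. The 5 heat shock genes, which respond to handling, summed to 2034 and 2372 CPM in sgArid1a samples and 1893 and 1873 CPM in sgScr samples, and their part was not tested either.

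Ribosomal protein messages were a large share of the RNA molecules counted. The 81 core members took 34.5% and 32.6% of all UMIs in the sgArid1a samples, against 38.2% and 37.2% in the sgScr samples. The groups did not overlap, and the mean difference was -4.14 percentage points (33.5 ± 1.32% and 37.7 ± 0.714%, SD, n = 2 each). The exact two-sided permutation p was 0.333, the smallest that 2 samples against 2 can give. Within the core, large subunit genes took 53.3% and 53.5% of the core UMIs in sgArid1a samples and 53.5% and 53.4% in sgScr samples, and the groups overlapped. Within each of the 10 cell states described below, cluster 11 apart, both sgArid1a samples lay below both sgScr samples instead, at 52.1% and 52.3% against 52.8% and 52.8% in naive/central memory-like cells and at 54.2% and 54.3% against 55.1% and 54.9% in exhausted-like cells (exact two-sided permutation p = 0.333 at best in each state).

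The median core member stood at 4227 CPM, and 72 of 81 exceeded 1000 CPM. The most abundant was Rps24 (11015 CPM on average), a small subunit protein mutated in some human cases of Diamond-Blackfan anaemia. It was followed by Rpl13 (10548 CPM), Rpsa (10357 CPM), Rplp0 (9428 CPM) and Rps15a (8247 CPM). Rplp0 anchors the lateral stalk that recruits elongation factors, and Rpsa, also known as the laminin receptor, sits on the small subunit near the messenger exit. At the low end, Rpl7l1, named for its likeness to Rpl7, averaged 44.1 CPM and Rps27rt, a near copy of Rps27, 142 CPM. Rpl10l, an Rpl10 copy known from testis, had 3 UMIs in 188575952 and was not tested, and Rpl3l, the muscle paralogue of Rpl3, had 0, which allows up to 0.0159 CPM at 3 counts.

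The share of core messages depended on cell state. Clusters were built without ribosomal genes and named by marker genes, and since states come from the same cells, levels by state are a description. Core members took 44.7% and 43.2% of UMIs in sgArid1a and 43.8% and 43.0% in sgScr naive/central memory-like cells, made of 2 clusters that raised 9 and 8 of 9 naive markers, Igfbp4 among them. Cluster 3 and cluster 8, which received no name, were as high, at 42.7 to 45.004% in every sample. The share was lower in the Ly49-positive-like (38.0 to 40.002%), memory-like (35.1 to 36.3%), interferon-stimulated-like (34.1 to 36.0%) and early activated-like cells (32.4 to 34.1%). It was lowest in exhausted-like (28.7 to 30.1%), Klrg1 effector-like (26.7 to 29.0%) and cycling-like cells (26.5 to 27.9%). In this order naive/central memory-like cells overlapped with clusters 3 and 8, memory-like with interferon-stimulated-like, exhausted-like with Klrg1 effector-like and these with cycling-like cells. The steps to Ly49-positive-like, memory-like, early activated-like and exhausted-like cells had no overlap. Every naive/central memory-like value lay above every memory-like value, and every memory-like value above every cycling-like value.

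**Figure D1:**
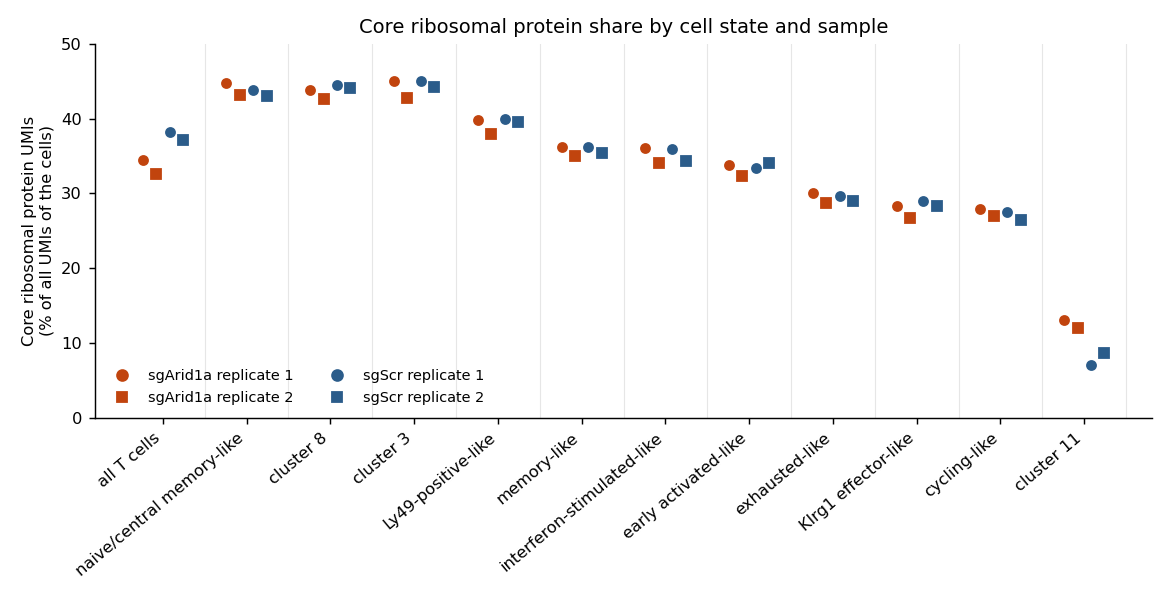
Share of all UMIs that fell on the 81 core ribosomal protein genes, in percent, for all T cells and for each cell state; each point is 1 sample (circle replicate 1, square replicate 2). Over all T cells the sgArid1a points (34.5 and 32.6%) lie below the sgScr points (38.2 and 37.2%), while within most states the 4 points interleave.

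Within states the groups were close. In naive/central memory-like cells the sgArid1a minus sgScr difference was 0.532 percentage points, in exhausted-like cells 0.0135 and in cycling-like cells 0.436. The largest differences outside cluster 11 were -1.16 points in Klrg1 effector-like cells and -1.14 points in cluster 8, and the groups overlapped in 9 of these 10 states. The states were unequally filled: naive/central memory-like cells were 18.0% and 18.4% of the sgArid1a T cells and 49.1% and 48.0% of the sgScr T cells, and cycling-like cells were 10.2% and 10.9% against 3.18% and 3.24%. With every cluster given the same weight in all samples, the core share was 36.3% and 34.9% in sgArid1a samples and 36.0% and 35.2% in sgScr samples, a difference of -0.0378 points.

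Cells of different states also differed in depth, outside cluster 11 from a median of 2740 UMIs in memory-like to 14013 UMIs in cycling-like cells. Among cells of 3000 to 6000 UMIs, the share was 44.9% and 44.3% in sgArid1a and 44.4% and 43.8% in sgScr naive/central memory-like cells. In cycling-like cells of that depth it was 26.1% and 23.5% in sgArid1a samples and 26.6% and 23.3% in sgScr samples (146, 39, 10 and 13 cells in the same order). Depth within this band was not matched further. Of the shallower and deeper cells of a state, the deeper had the higher mean share over the 4 samples, at 44.6% and 42.1% in naive/central memory-like cells. Exceptions by sample were both sgArid1a samples in early activated-like cells and sgScr replicate 2 in interferon-stimulated-like cells.

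Individual core members did not follow cell state equally. In cycling-like against naive/central memory-like cells, 69 of 81 core members were lower in all 4 samples (85.2%, against 30.6% of the 12805 genes compared), 7 were higher in all 4 (against 5987 of the 12805 genes), and the median log2 difference was -0.66 for the core and 0.17 for all genes. Rps27, a small subunit protein with a zinc finger, was the steepest, at 978, 907, 1145 and 1052 CPM in cycling-like cells and 4386, 3981, 4935 and 4373 CPM in naive/central memory-like cells (sgArid1a replicates 1 and 2, then sgScr replicates 1 and 2). The mean log2 difference was -2.11 for Rps27, -1.65 for Rps24 and -1.25 for Rps21. Rps29 and Rps28, which like Rps21 are among the smallest proteins of the subunit, both stood at -1.20.

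The 7 that ran the other way included Rpl7l1 (1.103) and, with smaller differences, Rpl7a (0.30), Rps2 (0.25) and Rps15 (0.24). Over the 11 clusters other than cluster 11, a choice made after seeing values, the widest log2 ranges belonged to Rps27 (2.21), Rps27rt (2.08), Rps24 (1.71), Rpl7l1 (1.54), Rps21 (1.32) and Rps20 (1.22), whereas the median core member spanned 0.81 and the median of 152 other genes above 500 CPM spanned 1.21. With cluster 11 included, Rps24 (2.63), Rpl39 (2.59), Rps27 (2.53), Rpl12 (2.53), Rpl36a (2.48) and Rps27rt (2.45) were widest, and the order of the medians was turned, at 2.16 for the core and 1.90 for the other genes.

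Over all T cells, 26 of 80 core members tested fell in sgArid1a samples and 3 rose (edgeR quasi-likelihood test, Benjamini-Hochberg adjusted p under 0.05 over all genes). Among all 12792 genes tested, 54.4% were called, 26.4% lower and 28% higher. The core members called were therefore fewer than the background in total (36.2%), somewhat above it among the falls (32.5%) and below it among the rises (3.75%). The median log2 fold change of the core was -0.14, against -0.02 for all genes, and 66 of 80 values were negative. The subunits had like counts, with 16 of 48 large subunit members lower (median -0.14) and 10 of 32 small subunit members lower (median -0.14). CPM values of the groups did not overlap for 64 of 80 core members (76.1% of all genes). The sgArid1a values lay below the sgScr values for 58 of them (41.1% of all genes) and above for 6 (35% of all genes).

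The deepest fall was that of Rps27, at 2390 and 2069 CPM in sgArid1a samples and 3823 and 3367 CPM in sgScr samples (log2 fold change -0.66, SE 0.10, edgeR adjusted p = 0.000128). Rpl13a, a large subunit protein that in human myeloid cells is also released to silence inflammatory messages, stood at 2830 and 2090 CPM against 3706 and 3915 CPM (-0.60, SE 0.12, edgeR adjusted p = 0.00126). The groups did not overlap for either gene, although the sgArid1a replicates of Rpl13a lay further apart than the sgScr replicates. Rps21, a small subunit protein, followed at 1811 and 1673 CPM in sgArid1a samples and 2838 and 2452 CPM in sgScr samples (-0.57). Rplp1, the acidic stalk protein, had 4977 and 4106 CPM against 6656 and 6506 CPM (-0.50). Rpl5, which carries the smallest ribosomal RNA into the large subunit and can bind Mdm2, the inhibitor of p53, had 1107 and 917 CPM against 1394 and 1492 CPM (-0.48).

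The next falls were Rpl12 at the stalk base (-0.47), Rps29 (-0.45), Rps27rt (-0.39), Rps28 (-0.36) and Rpl17 (-0.35), and the other 16 falls ended at -0.23 for Rpl36. The value of Rps27rt is uncertain, since a near-identical copy can share reads with Rps27, and its level was 4.87 to 5.35% of that of Rps27 in each state on average, whatever the level of Rps27. The rises were Rpl7l1 (46.7 and 48.1 CPM in sgArid1a samples, 40.8 and 41.0 CPM in sgScr samples, 0.24), Rps2, at the messenger entry of the small subunit (6301 and 6763 CPM against 5721 and 5690 CPM, 0.22) and Rpl7a (2273 and 2126 CPM against 1910 and 1965 CPM, 0.21). Of the 5 most abundant members, Rps24 fell (-0.33), and Rpl13, Rpsa, Rplp0 and Rps15a were not called, at log2 fold changes of -0.14 to 0.02.

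**Figure D2:**
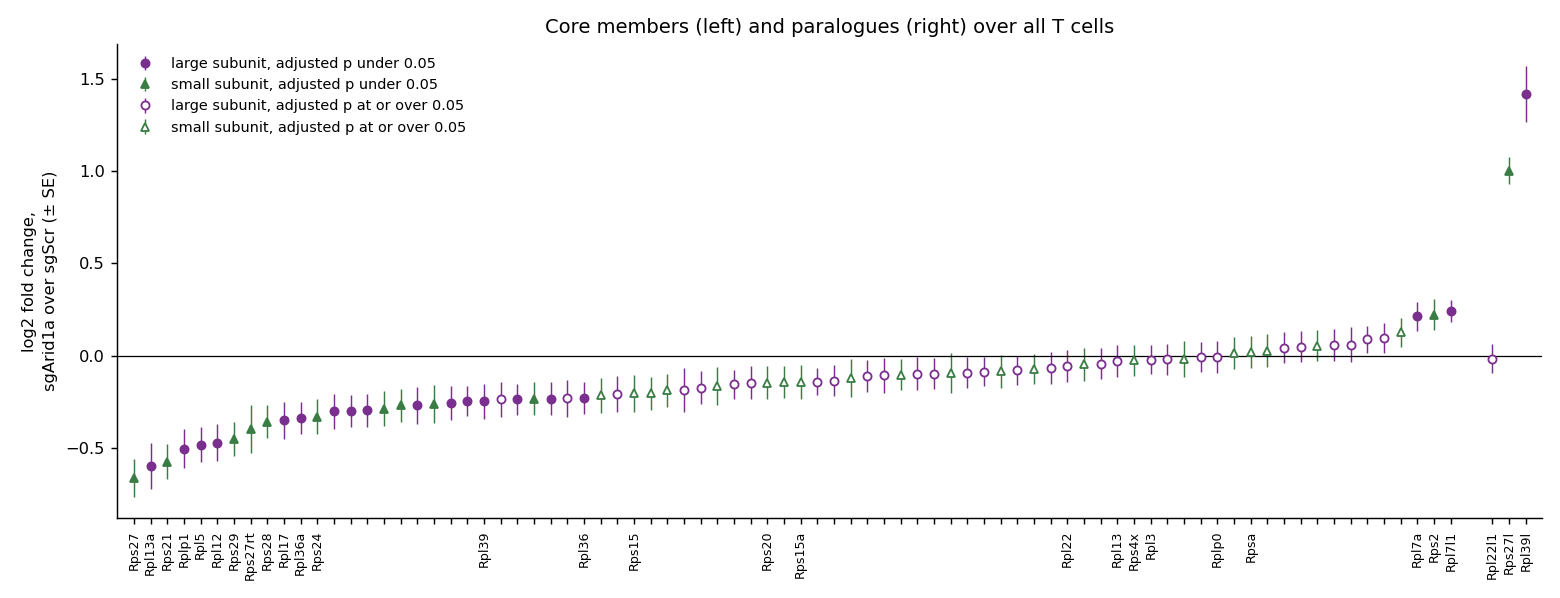
log2 fold change of sgArid1a over sgScr over all T cells, with its standard error, for the 80 core members tested (left) and the 3 paralogues tested (right), ordered by value. Filled symbols passed the test, and members named in the text carry their symbol; the core runs from -0.66 (Rps27) to 0.24 (Rpl7l1), and Rps27l (1.002) and Rpl39l (1.42) stand above it.

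Rps27, Rps27rt, Rps21, Rps29 and Rps28 were both among the 10 deepest falls over all T cells and among the members lowest in cycling-like relative to naive/central memory-like cells. With all clusters given the same weight in every sample, the median log2 ratio of the core was -0.04 and that of the 26 called falls -0.13, against -0.08 for all genes tested, and 46 of 80 core ratios were below 0. Rpl13a (-0.49) and Rpl5 (-0.42) kept most of their size at the common mix, Rps21 (-0.30), Rplp1 (-0.30) and Rps27 (-0.23) a smaller part, and Rps28 (-0.09) little. Rps24 (0.04), Rps27rt (0.03) and Rpl7l1 (-0.09), which were called, changed sign, as did others that were not called, such as Rps20 (0.05), Rpl13 (0.12), Rpl3 (0.07) and Rplp0 (0.09). These ratios have no test of their own. The number of falls also moved by over 1.5 times with single libraries and with depth. It was 12 without cycling-like cells and 8 when each cell was thinned to 1500 UMIs. Of all genes, 5442 of 12402 and 4038 of 11313 were called in these fits in either direction, against 6956 of 12792 in the main fit. The core median was -0.21 without sgArid1a replicate 1 and -0.06 without sgArid1a replicate 2. It was -0.11 without sgScr replicate 1 and -0.17 without sgScr replicate 2. Among the named members, Rps27, Rpl13a, Rps21, Rplp1, Rpl5, Rpl12 and Rps29 passed without each sample in turn, whereas Rps28, Rpl17, Rps24, Rps27rt and the 3 rises each lost the call without at least 1 sample.

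Within states few core members were called. In naive/central memory-like cells 2 of 80 core members were lower and 3 higher, where 4.36% of all genes were called, 1.39% lower and 2.97% higher. In exhausted-like cells 2 were lower and 1 higher (9.94% of all genes called, 4.42% lower and 5.51% higher), and in memory-like cells 2 were lower and 2 higher (3.66%, 0.983% and 2.67%). In cycling-like cells 1 was higher and 0 lower (5.53%, 3.09% and 2.44%). These counts moved widely when a sample was left out, to 0 to 37 in naive/central memory-like, 1 to 25 in exhausted-like, 0 to 32 in memory-like and 0 to 5 in cycling-like cells. They were highest without sgArid1a replicate 1 and lowest without sgScr replicate 1 or 2.

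Of the other named states, Ly49-positive-like cells had 3 lower and 0 higher (2.16% of all genes called, 0.704% lower and 1.46% higher), Klrg1 effector-like cells 2 and 0 (1.94%, 0.602% and 1.34%) and interferon-stimulated-like cells 2 and 0 (0.756%, 0.409% and 0.346%). Cluster 8 had 5 lower and 0 higher (0.842%, 0.193% and 0.648%) and cluster 3 had 2 and 0 (1.59%, 0.491% and 1.1%). In early activated-like cells edgeR called 0 in either direction (2.18%, 0.77% lower and 1.41% higher), with 11 core members at an unadjusted p under 0.05. The median log2 fold change of the core lay between -0.05 and 0.06 in these 10 states. Over the 11 states tested, cluster 11 included, 80 core calls were made, and the number was 245 without sgArid1a replicate 1, 150 without sgArid1a replicate 2, 9 without sgScr replicate 1 and 48 without sgScr replicate 2.

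Rpl13a and Rpl5 made up 15 of the 27 calls outside cluster 11. Rpl13a was called lower in 8 and Rpl5 in 7 of the 10 states, and both had negative log2 fold changes in all 10, with a median of -0.44 for each. In naive/central memory-like cells Rpl13a was at 3340 and 2453 CPM in sgArid1a samples and 3975 and 4221 CPM in sgScr samples (-0.43, edgeR adjusted p = 0.0187). Rpl5 in the same cells was at 1320 and 1030 CPM against 1584 and 1743 CPM (-0.44, edgeR adjusted p = 0.0117). In each of the 10 states sgArid1a replicate 2 was the lowest of the 4 samples for both genes and the groups did not overlap. Without sgScr replicate 2 the calls held in 2 states for Rpl13a and 1 for Rpl5, without sgScr replicate 1 in 3 and 4, and without sgArid1a replicate 1 or 2 in 6 to 10; the sign stayed negative in all 10 states each time.

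Rps4x, the X-linked S4 gene of the small subunit, ran in the other direction within states and was singled out after its values were seen. In naive/central memory-like cells it stood at 10387 and 10858 CPM in sgArid1a samples and 9345 and 9310 CPM in sgScr samples (0.25, edgeR adjusted p = 0.0463), and in memory-like cells at 7544 and 7988 CPM against 6844 and 6747 CPM (0.26, edgeR adjusted p = 0.0411). The sgArid1a samples lay above the sgScr samples in all 10 states, with log2 fold changes of 0.13 to 0.29, of which these 2 were called. Over all T cells the order of the samples was the opposite, at 7259 and 7375 CPM in sgArid1a samples and 7635 and 7552 CPM in sgScr samples (-0.02, edgeR adjusted p = 0.822). The calls within states were lost without either sgScr sample, and numbered 5 without sgArid1a replicate 1 and 6 without sgArid1a replicate 2. Of the falls outside cluster 11, Rps21 was called in 2 states and Rps27, Rplp1 and Rpl17 in 1 each.

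**Figure D3:**
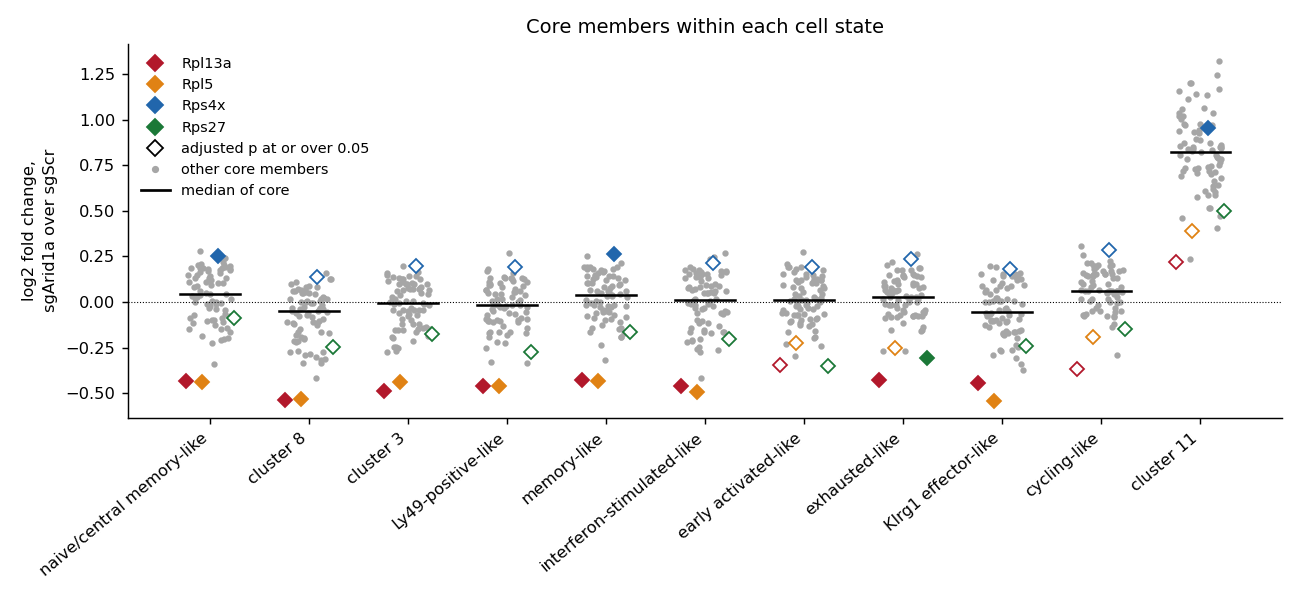
log2 fold change of sgArid1a over sgScr of each core member within each cell state, with Rpl13a, Rpl5, Rps4x and Rps27 drawn as diamonds (filled where the adjusted p was under 0.05) and the median of the core as a line. Outside cluster 11 the medians lie between -0.05 and 0.06, with Rpl13a and Rpl5 at the lower edge.

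Cluster 11 stood apart. It held 298 cells with a median of 1267 UMIs, and core members took only 13.1% and 11.99% of its UMIs in sgArid1a samples and 6.99% and 8.58% in sgScr samples. Here 53 of 78 core members tested were called higher and 0 lower (8.78% of all genes called, 7.23% higher and 1.55% lower), with a median log2 fold change of 0.83. The count was lower without each sample in turn, most so without sgScr replicate 1 and least so without sgScr replicate 2. Its cells were unlike in depth: the shallower part of them had a core share of 2.94% and 2.69% in sgArid1a samples and 1.93% and 2.45% in sgScr samples, and the deeper part 15.6% and 13.9% against 9.11% and 10.6%. RNA quality of these cells and the composition of the cluster were not tested.

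The group effect was also compared between cycling-like and naive/central memory-like cells by an interaction term, in a fit that also held a term for each sample. It was called for 6 of 80 core members, all with a higher value in cycling-like cells and 0 with a lower one (3.56% of all genes called, 1.24% higher and 2.32% lower). With TMM computed without ribosomal genes it was called for 16. Rps15 had a log2 fold change of -0.07 in cycling-like and -0.34 in naive/central memory-like cells (difference 0.29, SE 0.05, edgeR adjusted p = 7.71e-07). Rpl5 had -0.19 and -0.44 (difference 0.26, edgeR adjusted p = 3.49e-06). Rpl23a differed by 0.17, Rps26 by 0.14 and Rpl17 by 0.12. For Rps27l the difference was 0.01 (SE 0.08), so that its group effect was not shown to differ between these states.

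The paralogues Rps27l and Rpl39l rose over all T cells, and their parents Rps27 and Rpl39 fell. Rps27l is induced by p53, and its product can replace that of Rps27 in the ribosome. It was at 284 and 262 CPM in sgArid1a samples and 142 and 137 CPM in sgScr samples (log2 fold change 1.002, SE 0.07, edgeR adjusted p = 1.77e-07). Rps27 fell by 0.66 on the same scale, and the 2 genes thus moved in opposite directions. Rps27l amounted to 11.9% and 12.7% of Rps27 UMIs in sgArid1a samples and 3.71% and 4.06% in sgScr samples, a log2 difference of the ratio of 1.66 (exact two-sided permutation p = 0.333, the smallest possible with 2 against 2). Rps27l (ENSMUSG00000036781) lies at chr9:66946086-66949516 on the plus strand and Rps27 (ENSMUSG00000090733) at chr3:90212522-90213651 on the minus strand of GRCm38.

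Both genes differed by cell state, in opposite directions. Rps27l was at 520 and 452 CPM in sgArid1a and 419 and 407 CPM in sgScr cycling-like cells, and at 83.5 and 66.8 CPM against 64.2 and 61.6 CPM in naive/central memory-like cells. The mean ratio to Rps27 was 44.6% in cycling-like cells, 21.3% in exhausted-like cells, 13.1% in early activated-like cells and 1.57% in naive/central memory-like cells. The other states lay at or below 4.85%. The ratio was higher in both sgArid1a samples than in both sgScr samples in all 10 states other than cluster 11, for instance 53.2% and 49.9% against 36.6% and 38.7% in cycling-like cells and 27.7% and 26.3% against 14.9% and 16.2% in exhausted-like cells. At the common cluster mix the log2 ratio of Rps27l was 0.28 and that of Rps27 -0.23.

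Within states Rps27l passed the test only in exhausted-like cells, where it was at 365 and 325 CPM in sgArid1a samples and 261 and 249 CPM in sgScr samples (0.49, SE 0.09, edgeR adjusted p = 0.00137). This call held without each sample in turn. The log2 fold change was positive in all 10 states, from 0.14 in Klrg1 effector-like to 0.49 in exhausted-like cells, and the groups overlapped in 2 of them. In cycling-like cells it was 0.31 with an edgeR adjusted p of 0.0537. Rps27 had negative values in all 10 states and was called in exhausted-like cells only (-0.31, edgeR adjusted p = 0.029), a call lost without sgScr replicate 1.

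**Figure D4:**
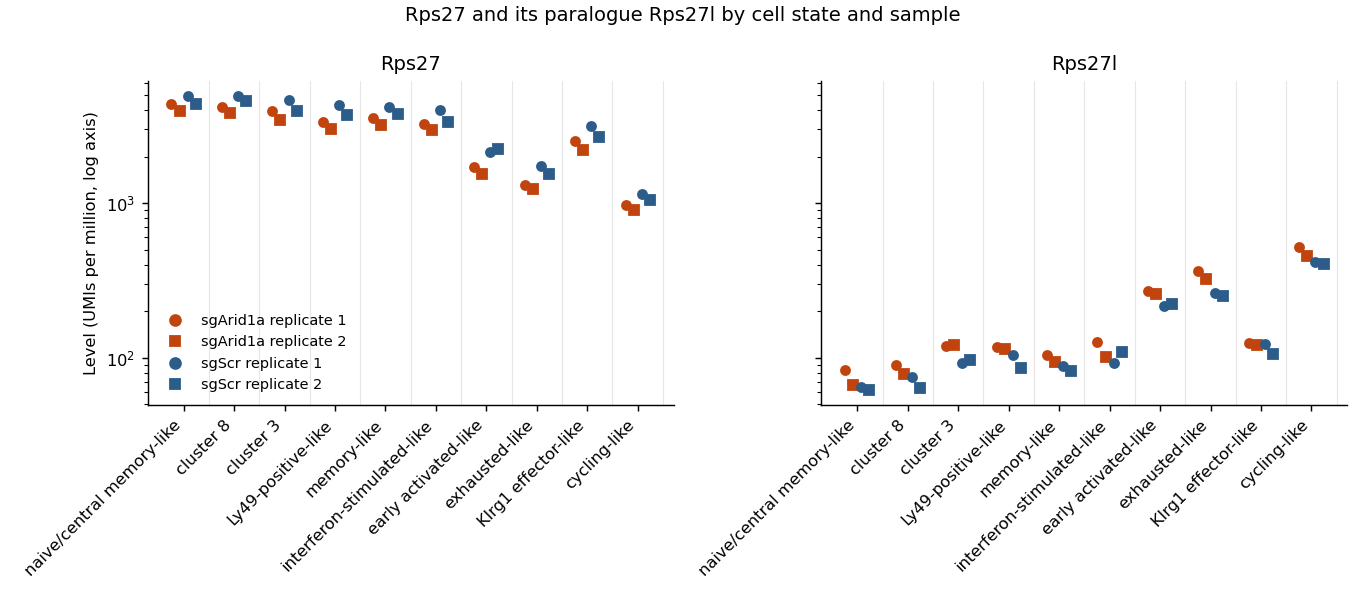
Level of Rps27 (left) and Rps27l (right) in CPM on a shared log axis, by cell state; each point is 1 sample. Rps27 is lowest and Rps27l highest in cycling-like cells (907 to 1145 CPM and 407 to 520 CPM).

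Rpl39l, the paralogue of the exit tunnel protein Rpl39 that is best known from sperm formation, was rare. It had 203 and 404 UMIs in sgArid1a samples and 60 and 70 UMIs in sgScr samples, which is 5.17 and 4.96 CPM against 1.68 and 2.17 CPM. The 95% exact Poisson intervals, which cover counting error only, ran from 4.48 to 5.93 and 4.49 to 5.47 CPM against 1.28 to 2.17 and 1.69 to 2.75 CPM. The log2 fold change was 1.42 (SE 0.15, edgeR adjusted p = 5.36e-06). It was 0.74 without cycling-like cells and 0.82 at 1500 UMIs per cell, both still called. The log2 ratio of CPM with a pseudocount of 1 CPM was 0.65 at the common cluster mix. That same measure was 1.05 over all T cells without the common mix. Its parent Rpl39 fell, at 2907 and 2804 CPM against 3714 and 3191 CPM (-0.25, edgeR adjusted p = 0.0409), a call lost without sgArid1a replicate 2 or sgScr replicate 1. Rpl39l amounted to 0.178% and 0.177% of Rpl39 in sgArid1a samples and 0.0453% and 0.0681% in sgScr samples.

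The Rpl39l UMIs came from few cells. They were seen in 101 and 167 cells of the sgArid1a samples and 39 and 35 cells of the sgScr samples. Cells were grouped by their Trbv segment, the variable part of the T cell receptor beta chain, which daughter cells of a clone share. Cells with Trbv20 held 70 and 140 of the Rpl39l UMIs in sgArid1a samples and 1 and 0 in sgScr samples, and cells with Trbv16 held 42 and 90 against 7 and 13. All other T cells together held 91 and 174 of them in sgArid1a samples and 52 and 57 in sgScr samples. Trbv20 cells were 5.69% and 6.19% of the T cells in sgArid1a samples and 2.10% and 1.93% in sgScr samples, whereas Trbv16 cells were 6.19% and 6.50% against 7.70% and 7.55%. Leaving out the Trbv16 and Trbv20 cells, a choice made after seeing these values, the log2 fold change was 0.60 (edgeR adjusted p = 0.0133).

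By state Rpl39l was higher in sgArid1a cycling-like cells, at 8.98 and 8.53 CPM (107 and 230 UMIs) against 2.03 and 0.253 CPM (9 and 1 UMIs) in sgScr cells (2.93, SE 0.39, edgeR adjusted p = 0.000187). It was 1.89 without the Trbv16 and Trbv20 cells (edgeR adjusted p = 0.0274) and 5.15 without sgScr replicate 1, whose removal leaves a single sgScr UMI. In exhausted-like cells it rose as well, with 7.31 and 6.54 CPM against 0.941 and 2.79 CPM (1.91, edgeR adjusted p = 0.00447). In memory-like cells it fell, with 5 and 14 UMIs against 17 and 18 UMIs (-1.50, edgeR adjusted p = 0.0351), and that call was lost without any 1 of the 4 samples. The interaction term between cycling-like and naive/central memory-like cells was 2.09 (SE 0.85, edgeR adjusted p = 0.187).

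**Figure D5:**
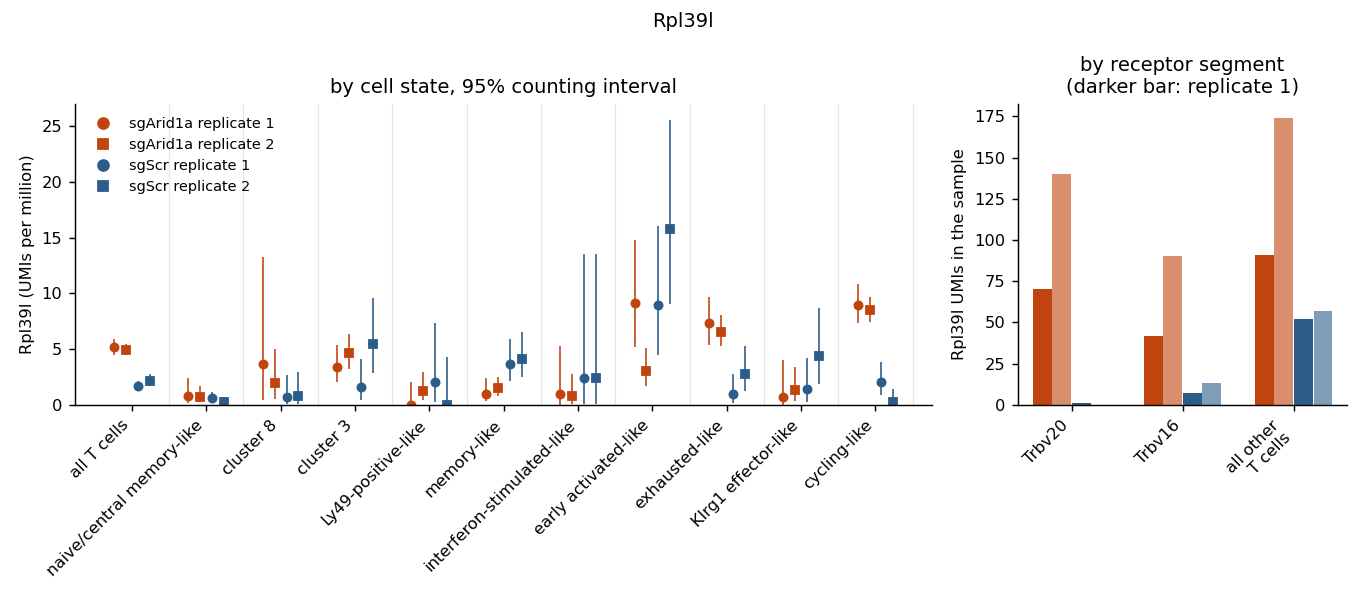
Rpl39l by cell state in CPM with 95% exact Poisson intervals (left; each point is 1 sample) and the number of Rpl39l UMIs in Trbv20, Trbv16 and all other T cells of each sample (right; bars start at 0). In cycling-like cells the sgArid1a samples (8.98 and 8.53 CPM) lie above the sgScr samples (2.03 and 0.253 CPM), and Trbv20 cells held 70 and 140 UMIs in sgArid1a samples.

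Rpl22l1 was not called over all T cells. It was at 953 and 890 CPM in sgArid1a samples and 980 and 924 CPM in sgScr samples (-0.02, SE 0.08, edgeR adjusted p = 0.873), and Rpl22, whose loss in mice impairs the development of alpha-beta T cells, was at 2171 and 1992 CPM against 2272 and 2144 CPM (-0.05, not called). Rpl22l1 amounted to 43.9% and 44.7% of Rpl22 in sgArid1a samples and 43.1% and 43.1% in sgScr samples, whereas without cycling-like cells it was 41.5% and 42.1% against 41.99% and 42.4%. Within states both sgArid1a samples lay below both sgScr samples in 6 of 10, for instance at 36.1% and 35.1% against 41.9% and 44.4% in interferon-stimulated-like cells, above them in 1, and overlapped with them in 3. Across the 10 states other than cluster 11 the mean ratio ran from 35.8% in Klrg1 effector-like to 51.3% in cycling-like cells, a far narrower span than that of Rps27l to Rps27. Rpl3, the parent of the undetected Rpl3l, was at 4037 and 4187 CPM against 4258 and 4251 CPM (-0.02, not called).

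The start of several of these genes was read from RefSeq promoters of GRCm38.p6, in windows of 10 bases before and 20 from the annotated start, to show how far the pyrimidine tract can be seen at members with opposite behaviour. The letters CTTTC were searched; capitals mark each match, and the 2 matches of Rps27 do not overlap. The windows are written 5′ to 3′ on the strand of the gene.
Rps27, chr3:90213629-90213658, minus: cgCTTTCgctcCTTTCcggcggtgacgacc
Rps27l, chr9:66946076-66946105, plus: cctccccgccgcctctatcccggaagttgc
Rpl39, chrX:37085203-37085232, minus: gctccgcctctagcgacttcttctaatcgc
Rpl39l, chr16:10170218-10170247, plus: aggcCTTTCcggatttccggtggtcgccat
Rpl13a, chr7:45128726-45128755, minus: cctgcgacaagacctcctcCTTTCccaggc
Rpl5, chr5:107900518-107900547, plus: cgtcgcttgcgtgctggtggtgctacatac
Rps24, chr14:24490668-24490697, plus: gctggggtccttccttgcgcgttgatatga
Of the 81 core members 61 had a start in the table. The letters were present on the gene's strand in 15 of their 71 starts (21.1%) and in 1230 of all 32851 starts (3.74%). On the other strand they were present in 3 of the 71 (4.23%) and in 3.65% of all starts. Rps27 and Rpl13a, which fell, and Rpl39l, which rose, had a match, and Rpl5 and Rps24, which fell, had none in these windows. The Rpl39l match and the first of the 2 Rps27 matches lay before the annotated starts. The Rps24, Rpl39, Rpl5 and Rpl13a windows lay inside the GENCODE genes, whose 5′ ends are at 24487125, 37085402, 107900502 and 45128761. Rps24 and Rps27l had 2 annotated starts each, of which 1 is shown. The windows therefore cannot show whether a message begins with the tract.

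Other genes of ribosome production were also counted, to be read against 28% higher and 26.4% lower among all genes tested. Ribosome biogenesis factors, which process ribosomal RNA and assemble subunits, were called higher for 28 of 40 and lower for 0 (median log2 fold change 0.29). Among them Nhp2, a box H/ACA particle protein, was at 214 and 216 CPM in sgArid1a samples and 120 and 120 CPM in sgScr samples (0.87). Mrto4, which helps assemble the stalk, was at 81.4 and 85.0 CPM against 51.0 and 49.9 CPM (0.75), and Pno1, a small subunit assembly factor, at 45.6 and 48.7 CPM against 30.5 and 30.3 CPM (0.66). The groups did not overlap for any of these 3 genes, which were named for their small p-values, nor for 76.1% of all genes tested.

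Mitochondrial ribosomal proteins, which build the separate ribosome of mitochondria, were called higher for 70 of 78 and lower for 0 (median 0.43). The smallest p-values belonged to Mrps6 (97.0 and 110 CPM against 54.3 and 59.9 CPM, 0.89), Mrpl17 (0.79) and Mrpl42 (0.72). Translation initiation factors were called higher for 16 and lower for 1 of 30 (median 0.18), led by Eif1ax (140 and 147 CPM against 89.1 and 88.3 CPM, 0.72), Eif2s1 (0.65) and Eif5a (0.69). At the common cluster mix the medians of these lists were 0.04 for biogenesis, 0.14 for mitochondrial ribosomal proteins and 0.02 for initiation factors, against -0.08 for all genes tested. Within cycling-like cells 9 of 40 biogenesis factors and 16 of 78 mitochondrial ribosomal proteins were called higher and 0 lower. Of all genes tested there 5.53% were called, 3.09% higher and 2.44% lower.

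Lists with signals upstream of the ribosome had counts in both directions, to be set beside the 28% higher and 26.4% lower of all genes. Of 18 translation factors and RNA-binding proteins with pyrimidine-tract messages 6 were higher and 6 lower, with Nap1l1 (0.74), Ybx1 (0.45) and Hnrnpa1 (0.38) first by p; At the common mix Nap1l1 had 0.10, and Ybx1 and Hnrnpa1 had -0.02. Without sgScr replicate 2 only 3 of the 18 were higher, and without sgScr replicate 1 only 3 were lower. Of 14 RNA polymerase I genes 3 were higher, including Polr1d (0.41) and Znrd1 (0.32), and 2 lower, including Taf1c (-0.35). Of 22 mTORC1 pathway genes 6 were higher, including Tbc1d7 (0.86), and 6 lower, including Sesn1 (-1.04) and Sesn3 (-0.58). At the common mix these were 0.03 for Tbc1d7, -0.19 for Sesn1 and -0.07 for Sesn3. Of 8 Myc network genes 2 were higher, including Mlx (0.32), and 4 lower, including Mnt (-0.44) and Mga (-0.37), and the counts were 1 higher without sgScr replicate 1 and 2 lower without sgScr replicate 2.

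The p53 and ribosomal stress list, which holds other p53 targets beside Rps27l, had 4 members higher and 3 lower of 11 (2 higher without sgScr replicate 2), where 28% of all genes were higher and 26.4% lower. Cdkn1a, a cell cycle inhibitor induced by p53, was at 21.3 and 26.1 CPM in sgArid1a samples and 10.3 and 10.7 CPM in sgScr samples (1.21). Bbc3, which encodes the death-promoting protein Puma, was at 15.1 and 16.9 CPM against 30.9 and 32.7 CPM (-0.95), and Sesn1, also a p53 target, fell by 1.04. At the common mix the log2 ratio was 0.11 for Cdkn1a and -0.62 for Bbc3. Of the ribosomal proteins that carry other names, Rack1, a signalling scaffold on the small subunit, fell (2156 and 1751 CPM against 2429 and 2562 CPM, -0.32, -0.25 at the common mix, not called without sgScr replicate 2), whereas Fau (-0.22, and 0.02 at the common mix), which is made fused to a ubiquitin-like protein, was not called.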

How the data were processed

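The deposited UMI counts were whole numbers per gene and cell barcode, without normalization. Per the file headers the authors used Cell Ranger 6.0.1, while the submitters' processing notes give Cell Ranger 3.0.2, Seurat and the build mm10. Cells were kept from 500 detected genes upward and up to 10% mitochondrial UMIs (38316 of 39473 barcodes) and clustered with scanpy 1.11.5: 2000 variable genes (none ribosomal, mitochondrial, sex-linked or of receptors), 30 components, 15 neighbours, Leiden resolution 0.8. A cluster was named where at least 3 markers were raised. Removing 57 cells that expressed MHC class II and B cell genes left 38259 T cells. No doublet caller was used; a fit without cells that held 2 Trbv segments stood in for one.

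UMI counts were summed per sample, and per sample and state (50 cells or more in all 4 samples), and tested over all genes with edgeR 4.0.16 (TMM, filterByExpr, glmQLFit, glmQLFTest) in R 4.3.3 at a Benjamini-Hochberg adjusted p under 0.05. The scripts were checked on simulated data. The common cluster mix weights each cluster's CPM by its mean share of UMIs over the 4 samples, with a pseudocount of 1 CPM in log2 ratios. DESeq2 1.42.0, other scalings and cell sets, and leaving out each sample were alternatives. Members with near-identical copies or pseudogenes are uncertain, since counting can split or drop their reads. Intervals and floors cover counting error only. Gene coordinates come from GENCODE M21 (GRCm38).

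The members and lists were chosen with earlier results of these data known. Genes were named by rule: the paralogues and their parents, the 10 largest falls and up to 8 largest rises among called core members of at least 20 CPM, the 5 highest, the 6 widest over clusters, and the 3 smallest p-values of each list. Some members and list genes are not reported here by name.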

Additional observations from a re-analysis of the deposited data

Results flagged for a closer look

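For 6 core members the sgArid1a against sgScr difference itself differed between cycling-like and naive/central memory-like cells by the interaction term (edgeR quasi-likelihood test, Benjamini-Hochberg adjusted over 11541 genes). Among them, the difference of the log2 fold changes was 0.29 for Rps15, 0.26 for Rpl5, 0.17 for Rpl23a, 0.14 for Rps26 and 0.12 for Rpl17, in each case higher in cycling-like cells.

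Rps15, which sits at the decoding side of the small subunit head, was at 984 and 826 CPM in sgArid1a and 999 and 1002 CPM in sgScr cycling-like cells, and at 809 and 598 CPM against 900 and 962 CPM in naive/central memory-like cells. In both states sgArid1a replicate 2 was the lowest sample. Rpl23a, at the exit of the peptide tunnel, was at 896 and 675 CPM against 845 and 879 CPM in cycling-like cells and at 857 and 590 CPM against 841 and 905 CPM in naive/central memory-like cells, so that the groups overlapped in both. The adjusted p was 0.0268 for Rpl23a, 0.0125 for Rps26 and 0.0434 for Rpl17.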

How the results depend on the processing

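Over all T cells 26 core members were lower and 3 higher. With library size in place of TMM 43 were lower. Without cycling-like cells 12 were lower and 1 higher, and at 1500 UMIs per cell 8 were lower and 0 higher. Of all genes, 6742 of 12792, 5442 of 12402 and 4038 of 11313 were called in these fits in either direction, against 6956 of 12792 in the main fit. Leaving out a sample gave 7 to 50 lower and 0 to 4 higher. The counts were 27 lower and 3 higher with DESeq2 (23 of the 26 shared) and 35 and 3 without the filter on low counts. They were 32 and 3 without cells with 2 Trbv segments, and 25 lower without the 4 near copies. Of all genes, 5379 of 12792 were called with DESeq2, 7192 of 19440 without the filter and 7074 of 12587 without cells with 2 Trbv segments. Core calls within states numbered 80, against 27 without cluster 11 and 9 to 245 when a sample was left out. The interaction was called for 6 core members and for 16 with TMM computed without ribosomal genes. The log2 difference of the ratio of Rpl22l1 to Rpl22 was 0.04, and -0.0147 without cycling-like cells. At the common cluster mix, which gives values but no calls, the sign changed for the called genes Rps27rt (0.0251), Rpl7l1 (-0.0943), Rps24 (0.0351), Ybx1 (-0.0215) and Hnrnpa1 (-0.0227). The cause was not tested. The difference in core share was -4.14 points and, at the common cluster mix, -0.0378 points with the samples of both groups interleaved. It was -4.55 to -2.53 points under the other alternatives run, and -5.07 to -3.20 when a sample was left out.

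The labels do not say whether the replicate numbers pair the samples, and the main fits used no pairing. Deviations of same-numbered samples correlated at 0.0876 over 12792 genes, a single value that cannot settle the pairing. With the number as a replicate block, 38 core members were lower and 3 higher over all T cells, 116 core calls were made within states, and those in naive/central memory-like cells numbered 0, against 5 without the block. Depth limits Rpl39l within states, where sgScr cycling-like cells held 9 and 1 UMIs.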

Other observations

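In early activated-like cells Rpl39l was at 9.10 and 3.06 CPM in sgArid1a samples and 8.97 and 15.7 CPM in sgScr samples (-1.22, edgeR adjusted p = 0.179), and the groups overlapped.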
